A study of Mus musculus with 8 samples.

Results

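ATP-binding cassette (ABC) transporter genes were compared between cKO and control mouse hearts at E11.5. They were taken as deposited entries whose symbol is Abc, a letter from A to G and a number. Of 23846 entries, 47 were analysed here as members, with 16 in subfamily A, 9 in B, 10 in C, 2 in D, 1 in E, 3 in F and 6 in G. Their expression was measured by RNA-seq in 4 libraries of cKO hearts and 4 of control hearts. The cKO hearts were Ogt f/y; TnT-Cre, a male genotype in which Cre from the cardiac troponin T promoter deletes floxed Ogt, the X-linked gene of the only O-GlcNAc transferase, in cardiomyocytes. The control hearts came from littermates, which the labels call control and WT with no further genotype. Both groups are labelled as B6, while the methods describe a mixture of the 129/SvJ and C57BL/6J strains. Whole hearts were taken, so endothelial, epicardial, blood and other cells that keep Ogt are in every library. It is not stated if 1 heart or several went into a library. The p-values therefore measure the spread between these libraries, which may be technical in part. In such bulk RNA, fewer cells of a type and less RNA per cell cannot be told apart.

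ABC proteins bind and hydrolyse ATP, and most of them use it to move a substrate across a membrane. Subfamily A moves lipids, subfamily B holds the multidrug exporters and the transporters of the mitochondrial membranes, and subfamily C holds organic anion exporters and the sulphonylurea receptors, which regulate the ATP-sensitive potassium (K-ATP) channels of heart and pancreas. Subfamily D imports fatty acids into peroxisomes and subfamily G exports sterols, drugs and porphyrins, whereas subfamilies E and F have no membrane part and act on ribosomes. In the heart the family is known mainly for K-ATP channels and for Abcb8, an inner mitochondrial membrane protein that protects mouse cardiomyocytes from iron overload in mitochondria.

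Levels are the FPKM that the authors deposited, in which fragments are set against transcript length and library size, so they can be compared between genes. Ogt had 20.1, 21.6, 24.7 and 21.5 FPKM in the cKO libraries 1 to 4, against 41.6, 43.3, 37.5 and 46.2 FPKM in the control libraries 1 to 4 (p = 0.0286 by an exact permutation test, two-sided, which is the smallest possible for 4 against 4). Summed FPKM was 562190 to 597408 in cKO libraries and 538581 to 637528 in control libraries. Read counts were not used here, and depth relative to control library 1, estimated from the smallest FPKM steps, was 1.12 to 1.25 in cKO libraries and 1 to 1.22 in control libraries. The sum of 10 cardiomyocyte markers was 20578 to 23214 FPKM in cKO libraries and 19378 to 24978 FPKM in control libraries, and 0 of the 10 passed the test in either direction.

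The family spanned a wide range of levels in these hearts. Abce1, which splits ribosomes into their subunits, was the most abundant member at 54.5 ± 0.572 FPKM in cKO hearts and 51.6 ± 2.96 FPKM in control hearts (SD, n = 4). It was followed in both groups by the ribosome-associated Abcf1 and Abcf2 and by the exporter Abcg2. Members under a mean of 1 FPKM over the 8 libraries, of which there were 26, were not tested. The nearest members on either side of this minimum were Abcc1 at a mean of 1.16 FPKM and Abca5 at 0.956 FPKM. The FPKM of the 47 members summed to 293 to 308 in cKO libraries and 294 to 302 in control libraries. Their sum was thus much alike in both groups, while single members differed.

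**Figure D1:**
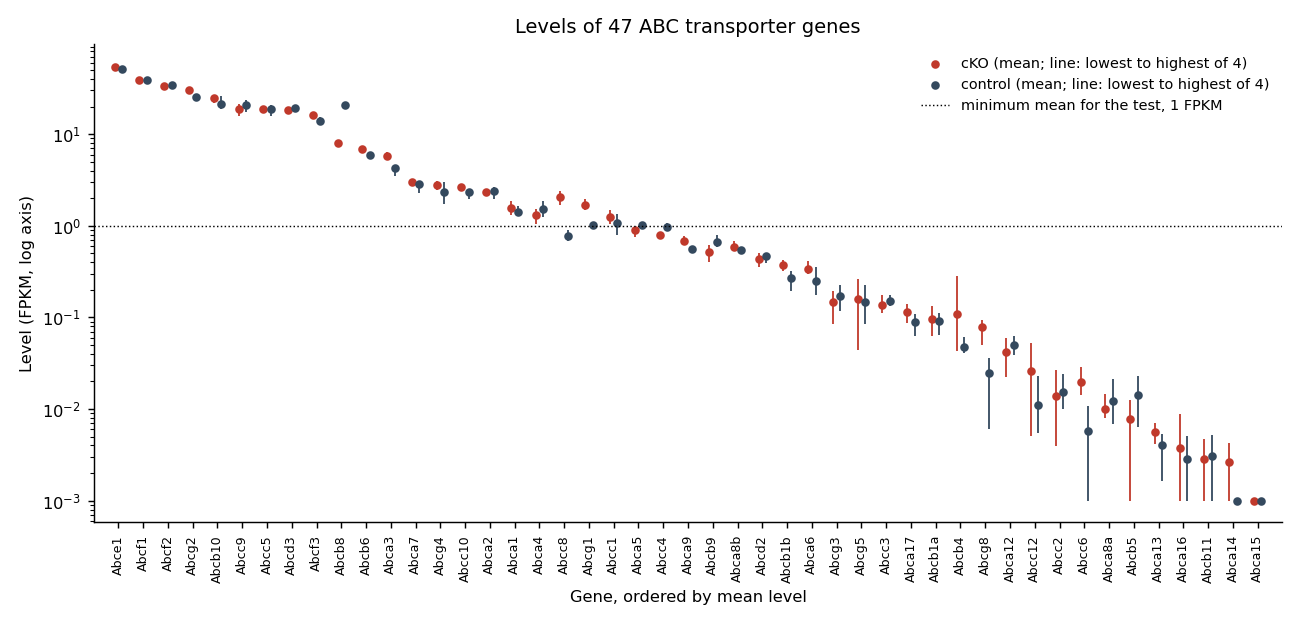
Mean level of each of the 47 ABC genes in cKO (red) and control (dark) hearts, in FPKM on a log axis, with a line from the lowest to the highest of 4 libraries; the dotted line is the minimum mean of 1 FPKM. Abcb8, at 7.99 FPKM in cKO and 20.9 FPKM in control hearts, is separated most among the abundant members.

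Of the 21 members tested, 14 were not called, while 6 rose and 1 fell in cKO hearts. The 6 include Abcc8, which reached the minimum of 1 FPKM only through its level in cKO hearts. The test was limma on log2(FPKM + 0.5) with the Benjamini-Hochberg adjustment over 12629 genes, with calls made below an adjusted p of 0.05. Across all genes tested, 30.7% were called, 15.9% higher and 14.9% lower, so the share of called members, 33.3%, was near the background. The median log2 fold change was 0.12 over the members and 0.02 over all genes tested. For 6 of the 21 members the 2 groups of libraries had no overlap, against 32.8% of all genes tested. Called members were found in subfamilies A (Abca3), B (Abcb6 and Abcb8), C (Abcc8), F (Abcf3) and G (Abcg1 and Abcg2). Abcb8 and Abcc8 stood at the ends of the family, at log2 fold changes of -1.33 and 1.01, and the other tested members lay between -0.16 and 0.52. All fold changes and standard errors below are on this log2 scale, which understates the change of genes with low levels.

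**Figure D2:**
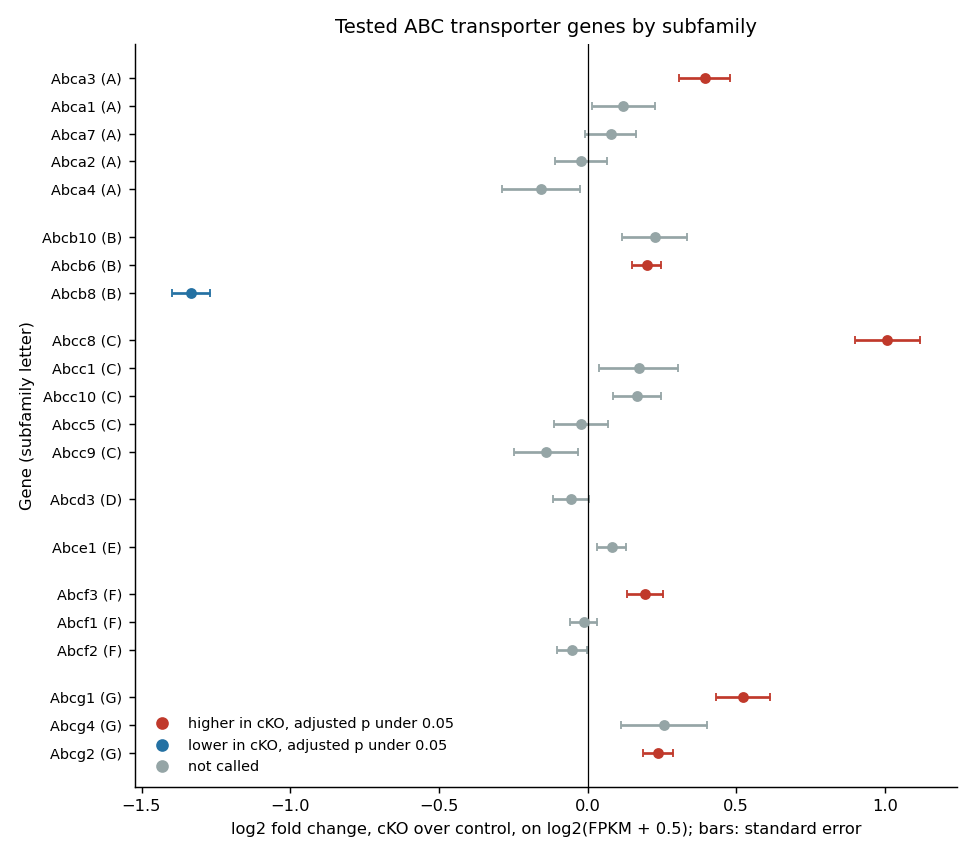
Log2 fold change, cKO over control, with its standard error for the 21 tested members, grouped by subfamily letter; red and blue points passed the test as higher and lower. Abcb8 lies at -1.33, Abcc8 at 1.01 and Abcg1 at 0.52, and the remaining 18 members lie between -0.16 and 0.39.

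Abcb8 was the member that differed most. Its gene lies on chromosome 5 of mm10 from 24394156 to 24409947 on the plus strand, with 17 exons in the longest coding transcript of GENCODE. The protein sits in the inner mitochondrial membrane, where it has been linked to iron export and to a mitochondrial K-ATP channel. Abcb8 had 8.72, 7.47, 8.35 and 7.42 FPKM in the cKO libraries 1 to 4, against 22.1, 19.7, 21.5 and 20.2 FPKM in the control libraries 1 to 4. The highest cKO library lay far below the lowest control library, and neither group had a library that stood apart. The means were 7.99 ± 0.647 FPKM in cKO hearts and 20.9 ± 1.10 FPKM in control hearts (SD, n = 4), a ratio of 0.383. Abcb8 fell by 1.33 (standard error 0.06, adjusted p = 9.68e-06 from limma), and only 61 of the 12629 genes tested had a lower fold change. By mean level it was number 10 of the 47 members in cKO hearts and number 7 in control hearts.

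The libraries carry 2 prefixes in their descriptions, OGF355 and OGF373, whose meaning is not stated. The names of the value columns conflict with this split, because all of them start with OGF373. Within the prefix of 1 cKO and 2 control libraries the log2 difference of Abcb8 was -1.21, and within that of 3 cKO and 2 control libraries it was -1.37. Leaving out any library kept its fold change between -1.37 and -1.30. The difference in Abcb8 was thus of a like size in every division of the libraries that was tried.

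**Figure D3:**
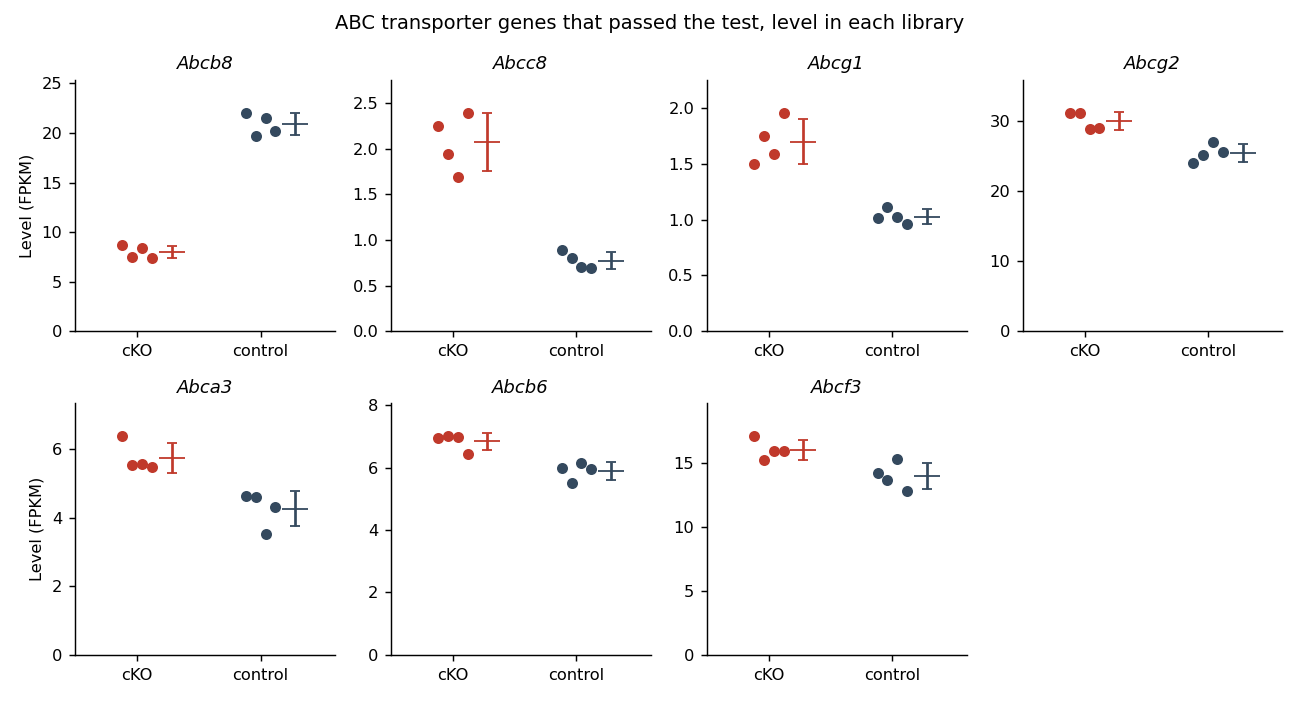
Level in FPKM (axes from 0) of the 7 members that passed the test, in each of the 4 cKO (red, left) and 4 control (dark, right) libraries, with the mean and SD beside them. The groups are apart for every gene except Abcf3, where cKO library 2 (15.2 FPKM) lies below control library 3 (15.3 FPKM).

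Abcb6 and Abcb10, which also act in mitochondria, were not called lower. Abcb6, a porphyrin transporter found on mitochondria and on lysosomal and plasma membranes (chromosome 1, 75171641 to 75180283), had 6.95, 7.00, 6.98 and 6.42 FPKM in cKO libraries, against 5.98, 5.49, 6.14 and 5.96 FPKM in control libraries. Every cKO library was above every control library, with cKO library 4 the nearest to them. Abcb6 rose by 0.20 (standard error 0.05, adjusted p = 0.0166 from limma), and without cKO library 2 the adjusted p from limma was 0.0528. Its difference was 0.26 within the prefix of 1 cKO and 2 control libraries and 0.15 within the other, which alone did not pass the test (adjusted p = 0.170 from limma).

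Abcb10, which serves haem synthesis in red cell precursors, had 25.5, 26.9, 25.9 and 21.9 FPKM in cKO libraries, against 19.4, 21.2, 18.9 and 26.4 FPKM in control libraries. The groups overlapped only through control library 4, as every other control library was below every cKO library. The lowest of the cKO libraries was library 4. The fold change of Abcb10 was 0.23 (standard error 0.11, adjusted p = 0.148 from limma), and 0.33 without control library 4 (adjusted p = 0.0202 from limma). Control library 4 also had the highest sum of erythroid markers, 69382 FPKM over 12 entries of 10 genes, and cKO library 4 had the lowest of the cKO libraries, 36381 FPKM. That sum was 36381 to 53989 FPKM in cKO libraries and 17572 to 69382 FPKM in control libraries, and its part in the level of Abcb10 was not tested.

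Together Abcb6, Abcb8 and Abcb10 had 35.7 to 41.4 FPKM in cKO libraries and 46.4 to 52.6 FPKM in control libraries. Abcb8 made up 18.0 to 21.2% of that sum in cKO libraries and 38.4 to 46.5% in control libraries. Abcb6 and Abcb10 alone summed to 28.3 to 33.9 FPKM in cKO libraries and 25.1 to 32.4 FPKM in control libraries. Without Abcb8 the sums of the 2 groups overlapped.

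The genes that surround Abcb8 on the chromosome were examined by position, taking the 5 entries on each side. None of them overlaps its locus. Of the 9 that were tested, 5 were called lower and 0 higher, where 14.9% of all genes tested were lower. The other called members together had 7 lower and 4 higher among 37 tested neighbours. The 5 lower neighbours were Nupl2, Nos3, Cdk5, Fastk and Tmub1, at log2 fold changes of -0.47, -0.32, -0.33, -0.31 and -0.58, and each was smaller in size than that of Abcb8. Atg9b, whose locus ends 2013 bases before Abcb8 and which runs on the other strand, averaged 0.998 ± 0.0650 FPKM in cKO hearts and 1.20 ± 0.0456 FPKM in control hearts (SD, n = 4). It was not called at -0.18 (adjusted p = 0.120 from limma), although all cKO libraries lay below all control libraries. Slc4a2, Kcnh2 and the microRNA entry Mir684-1, at 0.11, 0.06 and 0.45 (standard error of the last 0.48), were not called. Nos3 is the nitric oxide synthase of endothelium, and 4 of 8 endothelial markers were also lower in cKO hearts and 0 were higher, with sums of 213 to 225 FPKM in cKO libraries and 237 to 264 FPKM in control libraries. The part of these cells in the values of Nos3 and Abcb8 was not tested.

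**Figure D4:**
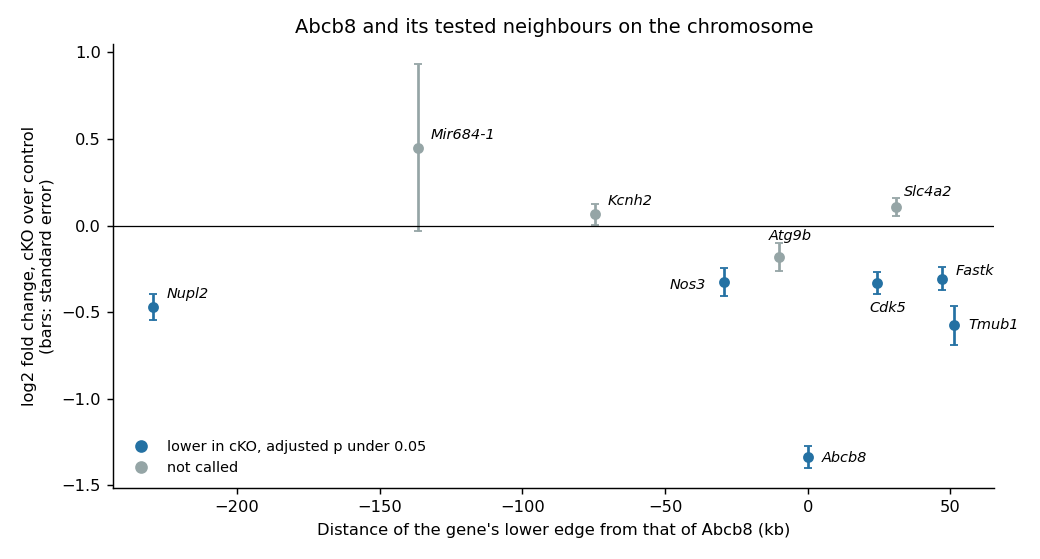
Log2 fold change, cKO over control, with its standard error for Abcb8 and its 9 tested neighbours, against the distance in kb between the lower edge of each gene and that of Abcb8. Blue points passed the test as lower; Abcb8 at -1.33 lies below all of them, and the lowest neighbour, Tmub1, lies at -0.58.

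Of 4 genes whose proteins have been placed with Abcb8 in the inner membrane, 1 was higher and 2 were lower. This and the other gene lists were chosen with earlier results of these data known, and 30.7% of all genes tested were called. Ccdc51, the pore protein proposed for the mitochondrial K-ATP channel, averaged 6.18 ± 0.426 FPKM in cKO hearts and 6.26 ± 0.295 FPKM in control hearts (SD, n = 4) and was not called at -0.02. Phb2, a prohibitin scaffold protein, rose by 0.35 (adjusted p = 0.00855 from limma), while its partner Phb fell by 0.29 (adjusted p = 0.0244 from limma). Sdha, the flavoprotein of succinate dehydrogenase, fell by 0.19 (adjusted p = 0.0461 from limma). Of 18 genes of mitochondrial iron-sulphur cluster and haem synthesis, all tested, 2 were higher and 2 were lower. Isca2, which helps to build iron-sulphur clusters in mitochondria, had 28.2, 29.1, 28.7 and 26.6 FPKM in cKO libraries, against 37.9, 36.8, 46.6 and 38.4 FPKM in control libraries, and fell by 0.49 (adjusted p = 0.00190 from limma). Gfer, a sulphhydryl oxidase of the intermembrane space, rose by 0.35 and Alas1, the first enzyme of haem synthesis outside red cells, rose by 0.25 (adjusted p = 0.0126 and 0.0206 from limma). Among 7 genes of iron uptake and sensing, 2 were lower and 0 were higher. These were Aco1, the iron-sensing cytosolic aconitase, at -0.35 and Tfrc, the transferrin receptor, at -0.25 (adjusted p = 0.00249 and 0.0316 from limma).

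In subfamily C the sulphonylurea receptors differed from each other. Abcc8 encodes SUR1, the receptor of pancreatic K-ATP channels and of those of mouse atria, and lies on chromosome 7 from 46104523 to 46180033 on the minus strand. Abcc8 had 2.25, 1.95, 1.69 and 2.40 FPKM in cKO libraries, against 0.892, 0.805, 0.703 and 0.691 FPKM in control libraries. All cKO libraries were well above all control libraries. Abcc8 rose by 1.01 (standard error 0.11, adjusted p = 0.000417 from limma), and 130 of the genes tested had a higher fold change. Because its mean in control hearts, 0.773 FPKM, was under the minimum, it entered the test through its level in cKO hearts. The log2 difference of Abcc8 was 1.03 within the prefix of 1 cKO and 2 control libraries and 1.06 within the other.

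Abcc9, which encodes SUR2, the receptor of ventricular and vascular K-ATP channels, averaged 19.0 ± 2.31 FPKM in cKO hearts and 21.0 ± 2.48 FPKM in control hearts (SD, n = 4). It was not called at -0.14 (standard error 0.11, adjusted p = 0.366 from limma), and 11868 bases of its locus are shared with an entry on the other strand at a mean of 1.74 FPKM. Abcc8 amounted to 10.1 to 12.1% of Abcc9 in cKO libraries and 3.26 to 3.98% in control libraries, so SUR2 transcripts remained the more abundant in every library. Kcnj11, a pore subunit of K-ATP channels and the gene 3759 bases from Abcc8, averaged 12.5 ± 0.675 FPKM in cKO hearts and 11.4 ± 0.872 FPKM in control hearts (SD, n = 4). It was not called at 0.12. The other pore subunit, Kcnj8, was under the minimum, at 0.484 ± 0.0950 FPKM in cKO hearts and 0.597 ± 0.0583 FPKM in control hearts (SD, n = 4). Of the next entry from Abcc8 on that side, Nomo1, 20311 bases away, the fold change was 0.37 (adjusted p = 0.0176 from limma), and Abcc6, a further member 74237 bases away, had at most 0.0289 FPKM in any library.

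The 3 exporters of subfamily C that were tested were not called. Abcc5, an exporter of cyclic nucleotides, averaged 18.6 ± 1.10 FPKM in cKO hearts and 19.0 ± 2.42 FPKM in control hearts. Abcc10, a multidrug exporter, averaged 2.66 ± 0.193 FPKM in cKO hearts and 2.32 ± 0.251 FPKM in control hearts. Abcc1, a glutathione conjugate exporter, averaged 1.26 ± 0.183 FPKM in cKO hearts and 1.07 ± 0.238 FPKM in control hearts (SD, n = 4 throughout). Their log2 fold changes were -0.02, 0.17 and 0.17, each within the overlap of the 2 groups.

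Of the tested transporters of subfamilies A and G, Abcg1, Abcg2 and Abca3 rose. Abcg1, which exports sterols to lipoprotein particles (chromosome 17, 31057694 to 31117981), had 1.496, 1.75, 1.58 and 1.96 FPKM in cKO libraries, against 1.01, 1.11, 1.02 and 0.958 FPKM in control libraries. The lowest cKO library exceeded the highest control library by more than the whole range of the control libraries. Abcg1 rose by 0.52 (standard error 0.09, adjusted p = 0.00321 from limma), by 0.36 within the prefix of 1 cKO and 2 control libraries and by 0.60 within the other. Abcg2, an exporter of urate, drugs and porphyrins (chromosome 6, 58596672 to 58692451), had 31.1, 31.3, 28.9 and 29.1 FPKM in cKO libraries, against 24.0, 25.2, 27.0 and 25.7 FPKM in control libraries. Its groups were apart, with control library 3 nearest to the cKO libraries. Abcg2 rose by 0.24 (standard error 0.05, adjusted p = 0.00843 from limma), by 0.33 within the prefix of 1 cKO and 2 control libraries and by 0.17 within the other, which alone gave an adjusted p of 0.140 from limma. Abcg4, a relative of Abcg1 known from brain, averaged 2.82 ± 0.301 FPKM in cKO hearts and 2.31 ± 0.585 FPKM in control hearts (SD, n = 4) and was not called at 0.26 (adjusted p = 0.208 from limma).

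Abca3, which loads phospholipids into lamellar bodies in the lung (chromosome 17, 24352046 to 24410201), had 6.37, 5.54, 5.55 and 5.49 FPKM in cKO libraries, against 4.62, 4.60, 3.52 and 4.31 FPKM in control libraries. All cKO libraries were above all control libraries, with cKO library 1 highest and control library 3 lowest. Abca3 rose by 0.39 (standard error 0.09, adjusted p = 0.00983 from limma), and by 0.43 and 0.45 within the prefixes of 1 and of 3 cKO libraries. Its locus shares 721 bases with D330041H03Rik, on the other strand at a mean of 5.67 FPKM, and whether the FPKM were computed by strand is not given in the sources used here. The other tested members of subfamily A were not called. Abca1, the cholesterol exporter to apolipoprotein A1, averaged 1.58 ± 0.243 FPKM in cKO hearts and 1.41 ± 0.154 FPKM in control hearts. The means of Abca7, a phospholipid transporter of phagocytes, were 3.01 ± 0.130 FPKM in cKO hearts and 2.84 ± 0.373 FPKM in control hearts, and those of Abca2, a lipid transporter of late endosomes, were 2.35 ± 0.101 FPKM in cKO hearts and 2.40 ± 0.325 FPKM in control hearts. Abca4, the retinoid flippase of photoreceptors, averaged 1.32 ± 0.207 FPKM in cKO hearts and 1.54 ± 0.308 FPKM in control hearts (SD, n = 4 throughout). The log2 fold changes of these 4 genes were 0.12, 0.08, -0.02 and -0.16.

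Of 14 genes of sterol efflux and its regulators, 12 were tested, 1 was higher and 2 were lower, where 30.7% of all genes tested were called. Scarb1, the receptor for high density lipoprotein, rose by 0.18 (adjusted p = 0.0315 from limma). Npc2, which carries cholesterol out of lysosomes, fell by 0.25 and Rxrb, a partner of the liver X receptors that drive Abca1 and Abcg1, fell by 0.22 (adjusted p = 0.0216 and 0.0293 from limma). Liver X receptor Nr1h2 was not called at -0.04, and Nr1h3, at 0.712 FPKM in cKO hearts and 0.704 FPKM in control hearts, was under the minimum. Of 5 regulators of drug transporter genes, 2 were tested, and Nfe2l2, which drives antioxidant genes, rose by 0.19 (adjusted p = 0.0221 from limma).

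Among the 7 called members, the RefSeq table (GRCm38.p6, the assembly of mm10) gave a promoter, 250 bases before to 50 after the start, for 4. These 4 promoters are shown because they were available, while Abcb8, Abcc8 and Abcg1 had none in that table. Direction played no part in the choice, and Abcc8 and Abcg1 rose as well. Capitals mark GGGCGG (the GC box of Sp1 factors), TGCGCA (the core of the nuclear respiratory factor 1 site) and CACGTG (the E box), searched on both strands, so that the first can also stand as CCGCCC. No 2 different motifs overlapped in them.
Abca3 (chr17:24351773-24352072, plus strand): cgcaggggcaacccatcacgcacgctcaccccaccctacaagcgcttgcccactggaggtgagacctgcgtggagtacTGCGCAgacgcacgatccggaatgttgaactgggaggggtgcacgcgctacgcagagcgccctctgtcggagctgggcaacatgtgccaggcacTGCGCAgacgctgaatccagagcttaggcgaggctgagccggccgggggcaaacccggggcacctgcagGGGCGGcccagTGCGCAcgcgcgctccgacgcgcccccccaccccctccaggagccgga
Abcb6 (chr1:75180343-75180642, minus strand): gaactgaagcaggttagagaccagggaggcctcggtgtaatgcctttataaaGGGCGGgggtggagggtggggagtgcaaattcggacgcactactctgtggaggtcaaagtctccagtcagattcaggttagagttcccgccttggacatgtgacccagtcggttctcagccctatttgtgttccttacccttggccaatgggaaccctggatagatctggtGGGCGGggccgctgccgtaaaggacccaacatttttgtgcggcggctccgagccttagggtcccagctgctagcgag
Abcf3 (chr16:20548353-20548652, plus strand): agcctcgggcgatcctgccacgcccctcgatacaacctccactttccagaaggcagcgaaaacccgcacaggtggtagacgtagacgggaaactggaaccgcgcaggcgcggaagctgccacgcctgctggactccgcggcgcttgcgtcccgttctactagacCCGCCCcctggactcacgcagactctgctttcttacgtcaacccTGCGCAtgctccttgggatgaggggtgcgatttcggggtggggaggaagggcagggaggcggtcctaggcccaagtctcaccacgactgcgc
Abcg2 (chr6:58596422-58596721, plus strand): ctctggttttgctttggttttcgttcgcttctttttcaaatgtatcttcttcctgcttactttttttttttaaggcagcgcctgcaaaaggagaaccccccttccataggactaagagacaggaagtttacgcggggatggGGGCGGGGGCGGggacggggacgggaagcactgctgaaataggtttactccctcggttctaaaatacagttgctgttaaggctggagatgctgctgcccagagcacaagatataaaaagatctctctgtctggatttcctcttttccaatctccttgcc
GGGCGG was found 1 time in Abca3, 2 times in Abcb6, 1 time in Abcf3 and 2 times, end to end, in Abcg2. This motif was in 35.7% of the 32851 promoters of the table. TGCGCA was found 3 times in Abca3, 1 time in Abcf3 and 0 times in Abcb6 and Abcg2, and was in 7.76% of all promoters. CACGTG was in none of the 4, and in 7.15% of all promoters. Over the whole family, 45 promoters of 38 members were in the table, and 21 of them held GGGCGG, 9 held TGCGCA and 6 held CACGTG. These are matches of letters and no sign of binding.

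In subfamily D, Abcd3, a peroxisomal member known for the import of branched-chain and dicarboxylic fatty acids (chromosome 3, 121758910 to 121815215), had 19.2, 18.8, 17.2 and 18.1 FPKM in cKO libraries, against 19.9, 18.3, 20.6 and 17.7 FPKM in control libraries. The groups overlapped, with cKO library 3 the lowest and control library 3 the highest. Abcd3 was not called at -0.06 (standard error 0.06, adjusted p = 0.514 from limma). Of 11 genes of peroxisome import and beta-oxidation, 2 were higher and 3 were lower, where 30.7% of all genes tested were called. The lower genes were enzymes of beta-oxidation, but Acaa1a and Scp2 of the same list were not called, at -0.002 and 0.13. Ehhadh, the bifunctional enzyme, had 1.19, 1.03, 0.99 and 1.19 FPKM in cKO libraries, against 2.14, 1.92, 2.03 and 1.63 FPKM in control libraries, and fell by 0.60 (adjusted p = 0.00199 from limma). Hsd17b4, the other bifunctional enzyme, fell by 0.22 (adjusted p = 0.00711 from limma). Pex14, a docking protein for import into the organelle, rose by 0.27 (adjusted p = 0.00405 from limma).

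Of the members that act on ribosomes, Abce1, Abcf1 and Abcf2 were the most abundant of the family and were not called, while Abcf3 rose. Abce1, on chromosome 8, had 54.4, 55.1, 53.8 and 54.9 FPKM in cKO libraries, against 49.3, 50.3, 55.9 and 50.9 FPKM in control libraries. Control library 3 was above all cKO libraries, and the other control libraries were below them. Abce1 was not called at 0.08 (standard error 0.05, adjusted p = 0.240 from limma), but passed without control library 3 at 0.12 (adjusted p = 0.0121 from limma) and with array weights at 0.12 (adjusted p = 0.00588 from limma). Abcf3, a relative of the yeast protein Gcn20 (chromosome 16, 20548603 to 20561603), had 17.1, 15.2, 15.9 and 16.0 FPKM in cKO libraries, against 14.2, 13.7, 15.3 and 12.8 FPKM in control libraries. These groups overlapped at cKO library 2 and control library 3. Abcf3 rose by 0.19 (standard error 0.06, adjusted p = 0.0406 from limma), and lost the call in 7 of the 8 fits that left out a library, with adjusted p from limma of up to 0.0991. Over all 19 alternative fits it lost the call in 10, with adjusted p from limma of up to 0.262. Its difference was 0.28 within the prefix of 1 cKO and 2 control libraries and 0.16 within the other. Abcf1, which promotes translation initiation, averaged 39.0 ± 1.29 FPKM in cKO hearts and 39.4 ± 1.57 FPKM in control hearts, and Abcf2 averaged 33.2 ± 1.47 FPKM in cKO hearts and 34.5 ± 1.57 FPKM in control hearts (SD, n = 4). Neither was called, at -0.01 and -0.05.

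Of 10 genes of ribosome rescue and the GCN2 arm, with which Abce1 and the Gcn20 family work, 5 were higher and 2 were lower. Across all genes tested 15.9% were higher and 14.9% lower. This list was chosen with earlier results of these data known, so its counts beside these shares do not measure an excess. Pelo, which recruits Abce1 to stalled ribosomes, had 33.5, 32.5, 29.1 and 32.2 FPKM in cKO libraries, against 23.1, 23.1, 24.5 and 22.1 FPKM in control libraries. All cKO libraries were above all control libraries, and Pelo rose by 0.45 (adjusted p = 0.000677 from limma). Etf1, the release factor that reads stop codons, rose by 0.34 (adjusted p = 0.00144 from limma). Eif2ak4, the kinase GCN2, had 4.35, 3.97, 4.60 and 4.07 FPKM in cKO libraries, against 7.33, 7.11, 5.62 and 6.13 FPKM in control libraries, and fell by 0.56 (adjusted p = 0.00186 from limma).

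**Figure D5:**
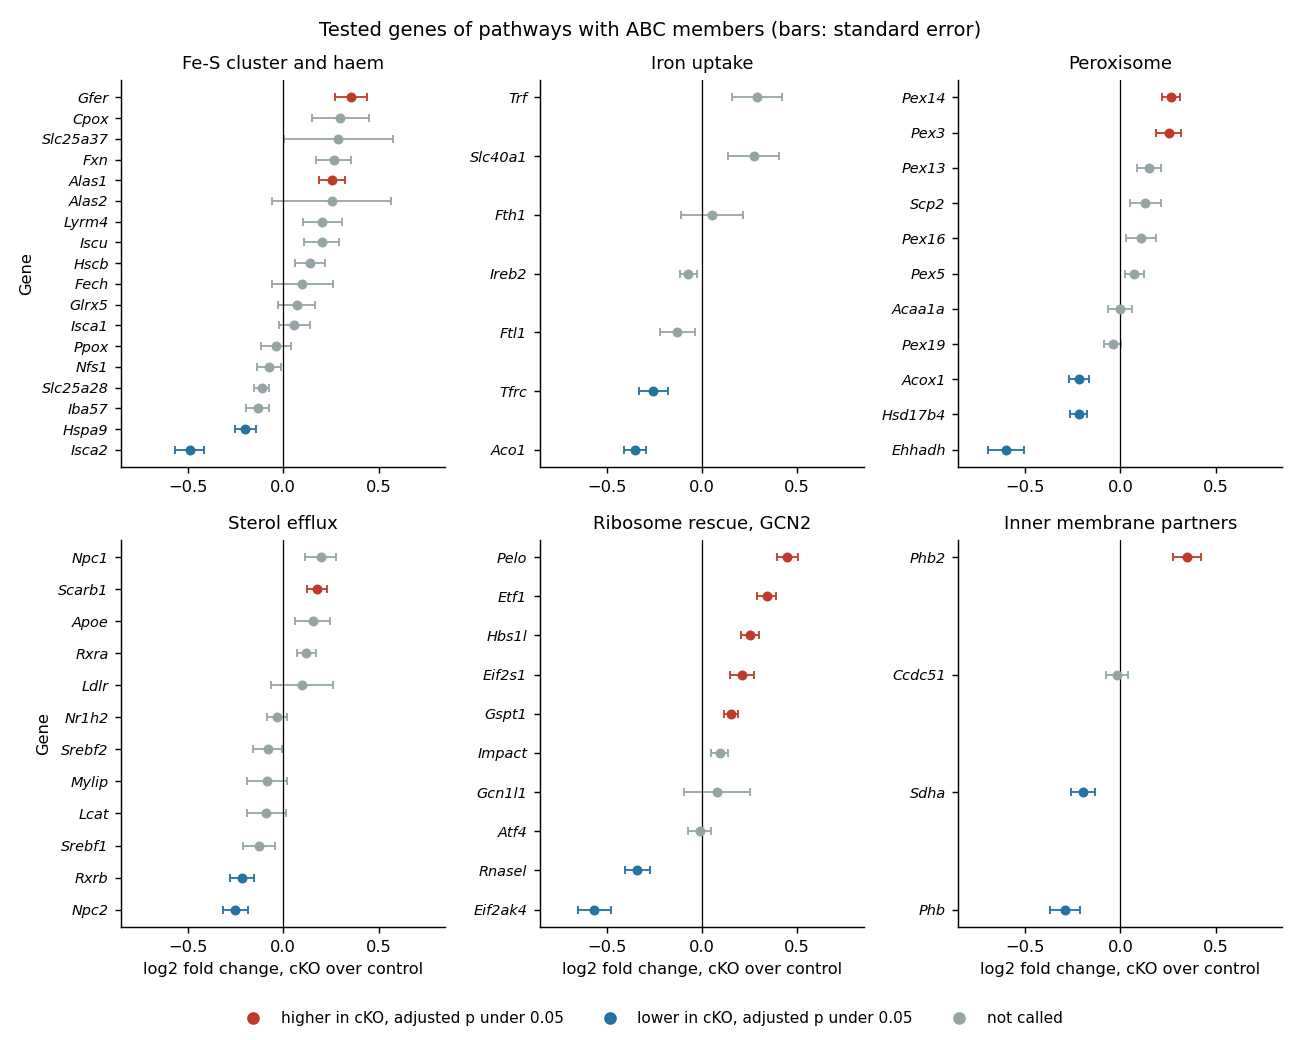
Log2 fold change, cKO over control, with its standard error for the tested genes of 6 lists of pathways in which ABC members take part; red and blue points passed the test as higher and lower. Isca2 (-0.49), Ehhadh (-0.60) and Eif2ak4 (-0.56) are the lowest in their lists, and Pelo (0.45) is the highest of the ribosome rescue list.

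The 26 members under the minimum were Abca5, Abca6, Abca8a, Abca8b, Abca9, Abca12, Abca13, Abca14, Abca15, Abca16 and Abca17 of subfamily A, Abcb1a, Abcb1b, Abcb4, Abcb5, Abcb9 and Abcb11 of B, Abcc2, Abcc3, Abcc4, Abcc6 and Abcc12 of C, Abcd2 of D, and Abcg3, Abcg5 and Abcg8 of G. They ranged from 0.001 FPKM, the lowest value in the table, to 1.07 FPKM in a library. Of these, 12 were under 0.1 FPKM in all 8 libraries, and Abca15 was at the lowest value in all 8. Among the low members were the bile salt exporter Abcb11 and the canalicular exporter Abcc2, both known from liver. The drug exporter Abcb1a, known from the blood-brain barrier, averaged 0.0956 ± 0.0355 FPKM in cKO hearts and 0.0922 ± 0.0209 FPKM in control hearts, and its copy Abcb1b averaged 0.373 ± 0.0467 FPKM in cKO hearts and 0.272 ± 0.0539 FPKM in control hearts (SD, n = 4). Reads that match both of 2 related genes, such as Abcb1a and Abcb1b, or Abca8a and Abca8b, may have been split between them.

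For 4 of the 26 members under the minimum the groups did not overlap. The 32.8% of genes tested is not a like share, because all of those genes reached the minimum. Abcg8, which pairs with Abcg5 in sterol export from liver and intestine, had 0.0505, 0.0894, 0.0930 and 0.0839 FPKM in cKO libraries, against 0.0297, 0.0272, 0.00608 and 0.0357 FPKM in control libraries. Abcg5, whose locus lies 208 bases from that of Abcg8 on the other strand, overlapped between the groups, at 0.159 ± 0.0906 FPKM in cKO hearts and 0.146 ± 0.0649 FPKM in control hearts (SD, n = 4). Abcc4, an exporter of cyclic nucleotides and prostaglandins, had 0.799, 0.819, 0.789 and 0.799 FPKM in cKO libraries, against 1.07, 0.952, 0.908 and 0.926 FPKM in control libraries. With no minimum, Abcg8 passed at 0.14 (adjusted p = 0.0197 from limma), although its highest value in any library was only 0.0930 FPKM. Abcc4 passed at -0.17 (adjusted p = 0.0305 from limma). Abca9 averaged 0.681 ± 0.0606 FPKM in cKO hearts and 0.563 ± 0.0285 FPKM in control hearts (SD, n = 4), and Abcc6, of elastic tissue calcification, had 0.0141 to 0.0289 FPKM in cKO libraries and 0.001 to 0.0108 FPKM in control libraries. Neither passed with no minimum.

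Many members lie beside each other on the chromosomes, 17 of the 47 having another member within 100000 bases. Of these, Abca3 and Abcc8 were tested and rose, but Abcc8 had entered the test only through its level in cKO hearts. The other 15 were under the minimum. Abca17, 4794 bases from Abca3 on the other strand, averaged 0.116 ± 0.0217 FPKM in cKO hearts and 0.0881 ± 0.01995 FPKM in control hearts (SD, n = 4). The Abca8b, Abca8a, Abca9, Abca6 and Abca5 row on chromosome 11, the Abca14, Abca15 and Abca16 row on chromosome 7 and the Abcb1a, Abcb1b and Abcb4 row on chromosome 5 were all under the minimum. The 3 ABC genes on the list that carry other symbols were likewise too low to test. Tap1 averaged 0.369 FPKM in cKO hearts and 0.288 FPKM in control hearts, Tap2, its partner in peptide transport, 0.363 FPKM in cKO hearts and 0.300 FPKM in control hearts, and the chloride channel Cftr 0.0456 FPKM in cKO hearts and 0.0395 FPKM in control hearts. Of 5 partners of Tap1 and Tap2 in peptide loading, 3 were tested, and Tapbpl fell by 0.35 (adjusted p = 0.00885 from limma). Across all genes tested, 30.7% were called.

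Genes used as markers of other cell types in the hearts were also compared. Of 6 epicardial markers, 4 were higher and 0 were lower, with sums of 211 to 247 FPKM in cKO libraries and 167 to 184 FPKM in control libraries. Across all genes tested 15.9% were higher. Of 6 tested smooth muscle and mural markers, 2 were lower, with sums over 7 genes of 613 to 745 FPKM in cKO libraries and 869 to 1043 FPKM in control libraries. Acta2, Tagln and Cnn1, at means of 497, 290 and 148 FPKM in control hearts, made up most of these sums. Which cells made these transcripts cannot be told from whole hearts. The lower markers were Cnn1 at -1.61 and Acta2 at -0.91 (adjusted p = 5.69e-05 and 0.00115 from limma). Tagln, Pdgfrb, Cspg4 and Rgs5 were not called, at 0.21, 0.14, -0.34 and -0.07. Myh11, under the minimum, had 0.341 to 0.471 FPKM in cKO libraries and 0.188 to 0.257 FPKM in control libraries. None of 4 tested macrophage, 5 cushion mesenchyme or 12 erythroid entries was called, nor was the neuronal marker tested, and none of these markers was at the lowest value in all 8 libraries. The part of these cells in the levels of the ABC genes was not tested. When the haemoglobin genes were removed and the libraries rescaled, 6 members were again higher and 1 lower.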

How the data were processed

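Whole transcriptome RNA was measured in 4 libraries of cKO and 4 of control E11.5 mouse hearts. Per the labels and methods, stranded mRNA libraries were aligned to mm10 with TopHat2 and Bowtie2 (versions not given in the sources used here). The authors deposited FPKM, not counts, for 23846 entries, with a p-value per gene that was not used. A text code stands in 1.32% of cells. Of these, 23521 entries had 8 numbers, and the 12629 whose mean reached 1 FPKM entered a limma 3.58.1 fit (empirical Bayes with trend, R 4.3.3) of log2(FPKM + 0.5). Calls were made below an adjusted p of 0.05 (Benjamini-Hochberg). The study used Cuffdiff2 on reads, which was not repeated here. The procedure was tested on simulated data. Members and gene lists were chosen with earlier results of these data known. Results of some genes of the family are not reported here. All members analysed are named; given in full are called members, Abcb8 and, for subfamilies D and E, the most abundant one; lists name up to 3 called genes of smallest adjusted p. Positions are those of the deposited entries, counted from 1. Alternatives were pseudocounts of 0.1 and 1, no minimum or a mean of 5 FPKM, quantile, median ratio and haemoglobin-free scaling, a replicate block, library prefix, array weights, and leaving out each library. Replicate numbers were not taken to pair the libraries, although the same-numbered libraries 1 and 2 gave the highest correlations, 0.13 and 0.16. Figures were drawn with Python 3.11.15 and matplotlib 3.10.9.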

Additional observations from a re-analysis of the deposited data

Results flagged for a closer look

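Of 44 groups of 4 libraries examined for Ogt and the tested members, 4 held a library far from the other 3, where chance gives about 1 in 20. Abca3 was 6.37 FPKM in cKO library 1, above the other cKO libraries, and Abcf1 was 40.9 FPKM in the same library. Abcb6 was 6.42 FPKM in cKO library 4, below the other cKO libraries and nearest to the control libraries. Abca7 was 2.29 FPKM in control library 3, below the other control libraries. Without cKO library 1, Abca3 was still higher, and without cKO library 4, Abcb6 was still higher.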

How the results depend on the processing

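Abcb8, Abcc8, Abcg1 and Abca3 kept their direction and their call under every alternative that tested them, Abcb8 with log2 fold changes of -1.38 to -1.28. Taken alone, the 5 libraries whose descriptions carry the prefix OGF373 (3 cKO and 2 control) called 3 members higher and 1 lower. They called 740 genes higher and 725 lower. With all libraries these counts were 6, 1, 2002 and 1877. Array weights called 3468 genes higher and 3114 lower. Leaving out each library gave 4 to 7 members called higher, 1 lower each time, 1353 to 2802 genes higher and 1297 to 2149 lower. The counts of 7 members, 2802 genes and 2149 genes all came without control library 3. Without that library the fold change of Abca3 was 0.31, its lowest among these fits. With the replicate number as a block, 5 members were higher and 1 lower, and Abcf3 lost its call (adjusted p = 0.0505 from limma); same-numbered libraries correlated at -0.01 to 0.16 in their deviations, so the numbers were not taken to pair them. With no minimum, 2 members were called lower, Abcb8 and Abcc4, and the adjusted p of Abcf3 from limma was 0.0757. The members that changed sign were not called in any of these fits. Abcf1 was 0.011 with prefix OGF373 alone and 0.010 with the prefix as a covariate, Abca2 was 0.077 and 0.023, and Abcc5 was 0.067 with the prefix alone. Leaving out a library gave -0.036 to 0.0086 for Abcf1, -0.099 to 0.019 for Abca2, -0.11 to 0.025 for Abcc5 and -0.0075 to 0.12 for Abca7. The causes were not tested.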
